A study of Mus musculus with 63 samples.

Results

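Small intestinal organoids that carried VillinCreERT2, Cdk8 fl/fl and Cdk19-/- alleles were sequenced 10 days after exposure to 4-hydroxytamoxifen (4-OHT), which activates the Cre recombinase and deletes CDK8, or to its vehicle, ethanol (EtOH). The members are the 3 libraries labelled 4-OHT and the 3 libraries labelled EtOH at day 10 in standard medium, 6 of the 63 samples of the series, and they were taken by their labels alone. Both groups are of the C57BL/6 strain, lack CDK19 in the germline, carry the floxed Cdk8 alleles and carry the Cre, so they differ only in what was added: 100 nM 4-OHT or 0.001% EtOH, each for 24 h before the medium was replaced. The Cre is driven by the villin promoter, which is active in intestinal epithelium. All 6 libraries come from organoids of the line numbered 1002, the age of the mouse is not given in the sources used here, and no source says that equal replicate numbers, or the 3 libraries of a group, came from separate mice or cultures. The p-values therefore measure the spread between these libraries, which may be technical. Organoids of the same line at days 3, 5 and 7, and in Wnt3-conditioned medium (Wnt3-CM) at day 10, serve for comparison, and a line with Cre but without floxed alleles was not sampled at day 10, so the response cannot be told apart here from an effect of 4-OHT and Cre activity alone.

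CDK8 and CDK19 are paralogous kinases that, with cyclin C, MED12 and MED13, form a module that docks on Mediator, the complex that links enhancers to RNA polymerase II. In the intestine, stem cells at the crypt base divide under Wnt and Notch signals and give rise to absorptive enterocytes or to secretory cells, which are Paneth, goblet, tuft and enteroendocrine cells. ATOH1 is the transcription factor that commits a cell to the secretory fate, and Paneth cells in turn supply Wnt3 and Notch ligands to the stem cells, a supply on which organoids depend because they contain no mesenchyme.

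Reads were deposited as unnormalised counts for each gene. Totals ran from 19110500 to 20225762 counts in the 6 libraries, so that 3 counts correspond to 0.154 counts in 1e6 (CPM), and 15447 of 54752 genes had enough counts to be tested. All values per library below are CPM, scaled with TMM factors of the 24 libraries of the time course, and log2 fold changes are 4-OHT relative to EtOH with their standard error. The 8 epithelial identity markers, Epcam, Cdh1, Vil1, Cdx2, Cdh17, Krt8, Krt18 and Krt19, summed to 8721 to 9261 CPM with EtOH and to 9657 to 10750 CPM with 4-OHT. The markers of other tissues were low: 10 immune genes summed to at most 3.25 CPM, 10 mesenchymal genes to at most 5.38, 8 endothelial and glial genes to at most 2.32 and 10 stomach genes to at most 6.49 in any of the 6 libraries. The stomach sum was 2.52 to 3.69 CPM with EtOH and 4.16 to 6.49 CPM with 4-OHT, where Tff1, a trefoil peptide, was called higher (log2 1.02), a call lost without replicate 1 of the EtOH group or replicate 2 of the 4-OHT group. The endothelial gene Tek, with at most 12 counts, was called higher too (log2 2.98), but no gene of its list was when only the 6 libraries were fitted or at least 10 counts in every library were required. Their part in the other results was not tested. Adgre1, Itgax, Cd8a, Col1a2, Dcn, Lum, Cdh5, Sox2 and Gast had 0 counts in all 6. Replicate 1 of each group stood apart from the other two of its group, with a mean chi-square per gene of 10.7 to 12.4 against them, compared with 2.41 and 5.39 between replicates 2 and 3.

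Cdk8 on chromosome 5 (GRCm38, 146231230 to 146302874) was counted at 57.1, 53.9 and 56.2 CPM with EtOH and at 57.5, 53.3 and 56.2 CPM with 4-OHT. No difference in the whole-gene count was detected (log2 fold change 0.00 ± 0.07 SE, adjusted p = 0.993). A count over the whole gene does not check the deletion, because a transcript that lacks the deleted exon can still be counted. Cdk19 gave 40.4 ± 1.35 CPM (SD, n = 3) with EtOH and 38.5 ± 2.81 CPM with 4-OHT, so reads fall on it although both groups carry the Cdk19-/- genotype. Of the 6 measured genes of the kinase module, Med13l, the paralogue of Med13, was the 1 DEG, from 61.0 ± 4.06 to 38.5 ± 4.72 CPM, and its call was lost without replicate 2 of the 4-OHT group. Med12, Med13 and Ccnc were within 0.33 of 0 on the log2 scale.

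At day 10 2437 genes changed by more than 1.5-fold with an adjusted p below 0.05, and are called DEGs here. They are 15.8% of the genes tested: 1368 rose (8.86%) and 1069 fell (6.92%). The fold cutoff did much of the selection, since 6843 genes had an adjusted p under 0.05 at any fold, and 951 DEGs changed more than 2-fold, 584 upward and 367 downward. The libraries of the groups did not overlap for 53.2% of all genes tested, so a lack of overlap by itself singles out few genes. The median log2 fold change of all genes was 0.02.

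**Figure D1:**
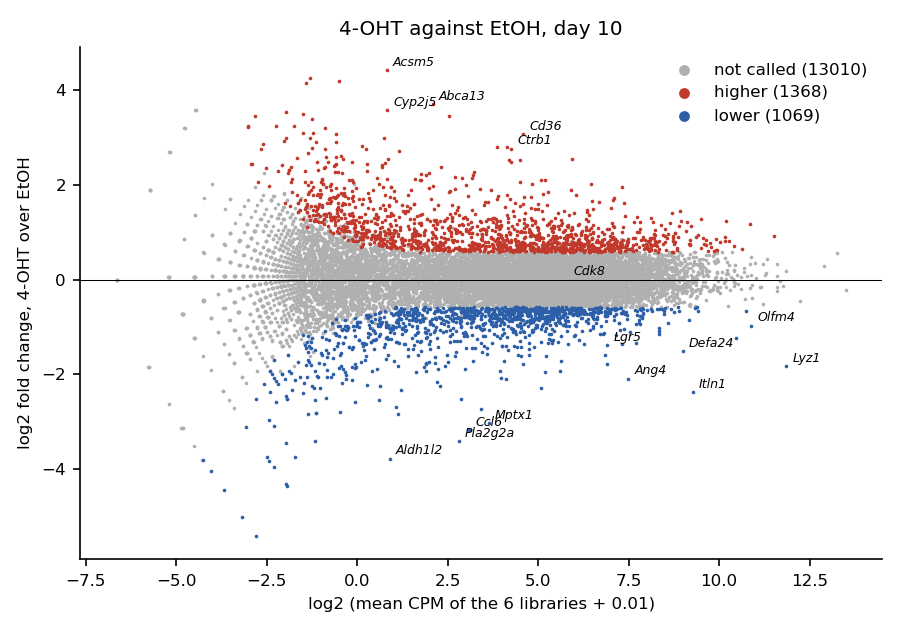
Log2 fold change of 4-OHT relative to EtOH at day 10 (vertical) against the log2 of the mean CPM plus 0.01 (horizontal) for each gene tested. The 1368 genes that rose, the 1069 that fell and those not called are coloured apart, and called genes occur over the whole range of expression.

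A 21.4-fold rise, the largest in this fit among DEGs with at least 50 counts, was that of Acsm5, which encodes a mitochondrial medium-chain acyl-CoA synthetase. It was at 0.0969, 0.253 and 0.101 CPM with EtOH and at 3.62, 3.38 and 2.99 CPM with 4-OHT (log2 4.42 ± 0.43 SE, adjusted p = 1.32e-09). Each 4-OHT library lay above every EtOH library by a factor of more than 10. Replicates 1 and 3 of the EtOH group are under the 0.154 CPM of 3 counts, so that without replicate 2 the fold has no exact size. The log2 fold change of Acsm5 was 4.11 to 4.98 over the alternatives. Among the next largest rises were Abca13, an ABC transporter (log2 3.71), Cyp2j5, a P450 of fatty acid epoxidation (3.57), and Cd36, a fatty acid translocase (3.07). Olfr1396, Apol10a, Mbl2, Ctrb1 and Fgf2 followed, between 2.72 and 3.00. The rise of Abca13 is uneven, with 1.45, 0.152 and 0.152 CPM with EtOH and 12.3, 7.23 and 4.08 CPM with 4-OHT. Without replicate 1 of the EtOH group that group is at 3 counts in each library, so its fold has no exact size and its order against Acsm5 is not fixed. By the same limit of 50 counts, the largest fall in this fit was that of Aldh1l2, which encodes the mitochondrial 10-formyltetrahydrofolate dehydrogenase, from 2.81, 3.74 and 3.80 CPM with EtOH to 0.533, 0.0527 and 0.155 CPM with 4-OHT (log2 -3.78 ± 0.47 SE, adjusted p = 2.64e-07). The groups are far apart, but the 4-OHT libraries hold 10, 1 and 3 counts, so that without replicate 1 the fold has no exact size. The other 9 largest falls within this limit include the alpha-defensins Defa20, Defa3 and Defa2 (log2 -2.72, -2.54 and -2.51) and Itln1, the gene of a secreted lectin (-2.37). The rest are Pla2g2a, a secreted phospholipase (-3.42), the chemokine Ccl6 (-3.17), the pentraxin Mptx1 (-3.03), Cyp26b1, an enzyme that degrades retinoic acid (-2.83), and Piwil4 (-2.68).

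Paneth cell effectors fell. Of 17 measured genes of this list 9 fell and 1 rose, against 6.92% and 8.86% of all genes, and their median log2 fold change was -0.69. Lyz1, lysozyme of Paneth granules (chromosome 10, 117287797 to 117292868), was at 5704, 5875 and 5849 CPM with EtOH and at 1499, 1773 and 1623 CPM with 4-OHT, a 3.56-fold fall (log2 -1.83 ± 0.11 SE, adjusted p = 3.57e-12). The spread within each group is small beside the gap between them. Itln1, the gene of intelectin-1, a lectin that binds microbial glycans, was at 1092, 1018 and 1004 CPM with EtOH and 204, 214 and 184 CPM with 4-OHT (log2 -2.37 ± 0.07 SE, adjusted p = 7.17e-21). Ang4, which encodes an antimicrobial ribonuclease, fell from 283, 291 and 298 CPM to 62.6, 78.9 and 63.4 CPM (log2 -2.09 ± 0.12 SE, adjusted p = 1.66e-11). Neither gene had a 4-OHT library within a factor of 3 of an EtOH library. Mmp7, the metalloproteinase that activates mouse alpha-defensins, fell by 1.16 on the log2 scale, from 198 ± 5.97 to 88.4 ± 13.8 CPM. Wnt3, the Wnt ligand that Paneth cells supply, was at 13.2, 13.4 and 13.2 CPM with EtOH and at 4.80, 4.64 and 5.16 CPM with 4-OHT (log2 -1.45 ± 0.13 SE, adjusted p = 3.86e-10). Reg3g, a C-type lectin that enterocytes also make, was the member that rose, from 78.3 ± 16.3 to 138 ± 19.4 CPM. The number of members that rose was 0 without replicate 1 of the EtOH group or the first library of both groups, and 2 in 6 other alternatives. In bulk RNA, fewer cells of a type and less RNA per cell cannot be told apart.

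**Figure D2:**
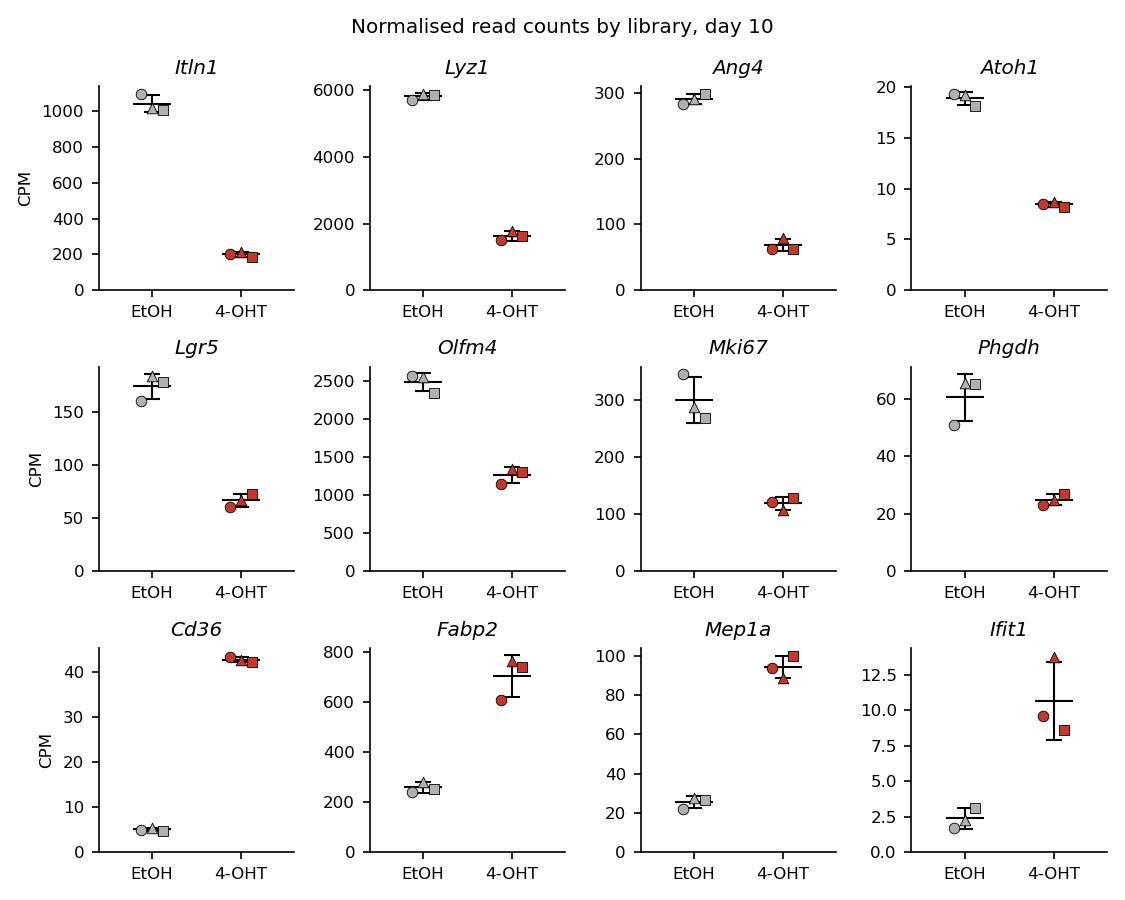
CPM of 12 genes in each of the 6 libraries at day 10, EtOH and 4-OHT side by side, each panel with its own linear axis from 0. Circles, triangles and squares are replicates 1, 2 and 3, bars are group means and whiskers 1 SD. Lyz1, Itln1, Ang4, Atoh1, Lgr5, Olfm4, Mki67 and Phgdh are lower and Cd36, Fabp2, Mep1a and Ifit1 are higher in every 4-OHT library than in every EtOH library.

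The alpha-defensins, small cationic peptides of Paneth granules that kill bacteria, fell as a family. Of 15 measured genes, 13 fell and none rose in edgeR, at an adjusted p or at an unadjusted one, and the median was -1.71. Defa24, the most abundant, fell from 753 ± 58.6 to 265 ± 31.9 CPM (log2 -1.51 ± 0.08 SE, adjusted p = 1.91e-14). Defa30 was at 168, 188 and 201 CPM with EtOH and 46.0, 67.3 and 48.4 CPM with 4-OHT. Defa20, with the largest fold of the family, fell from 18.6 ± 2.65 CPM to 2.66, 2.95 and 2.79 CPM. For both genes the groups are well apart. Defa29 and Defa28 were not called, with 17.7 against 13.9 CPM and 0.384 against 0.209 CPM. These genes lie in a cluster on chromosome 8 and several are near-identical, so that reads may have been divided among copies, and the value of a single member is less certain than the direction of the family.

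The start sites of these genes share sequence as well. The promoters of 8 of the 15 were matched by name in RefSeq (GRCm38.p6), too few for a share of the list, and all 8 hold the TCF/LEF core CTTTGAT or its reverse complement ATCAAAG within 250 bases before to 50 bases after the start site, where 3.16% of the 9799 matched promoters of protein-coding genes tested hold it. The windows below, all on the plus strand, are shown because they hold the core in members that fell. The promoter of Defa28, which was not called, holds it too, so the core is not limited to members that fell. An E-box, CAGCTG or CAGATG on either strand, was searched as well and is in 7 of the 8, against 28.2% of the promoters of protein-coding genes. Capitals mark the TCF/LEF core. The windows are at chr8:21025415-21025494 for Defa21, chr8:21509128-21509207 for Defa20, chr8:21064893-21064972 for Defa35 and chr8:21134490-21134569 for Defa30.
Defa21: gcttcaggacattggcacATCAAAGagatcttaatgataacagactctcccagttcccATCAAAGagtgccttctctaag
Defa20: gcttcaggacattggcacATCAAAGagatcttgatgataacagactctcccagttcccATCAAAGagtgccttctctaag
Defa35: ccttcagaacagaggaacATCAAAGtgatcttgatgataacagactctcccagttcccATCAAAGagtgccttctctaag
Defa30: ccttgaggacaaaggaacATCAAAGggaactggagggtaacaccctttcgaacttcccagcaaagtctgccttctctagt
Of the 80 bases, Defa20 shares 79 with Defa21, Defa35 shares 73 and Defa30 shares 58. The core is present 2 times in the first 3 and 1 time in Defa30, where the second position is not a match. The 4 genes fell by 1.93 (Defa21), 2.72 (Defa20), 1.98 (Defa35) and 1.79 (Defa30) on the log2 scale. Because the copies descend from each other, the shared core is not independent from gene to gene, and a match of letters is not evidence of binding.

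Transcription factors of the secretory lineage were lower. Of 23 measured genes, 16 fell and none rose, with a median of -0.91. Atoh1 (chromosome 6, 64729125 to 64731245) was at 19.2, 19.2 and 18.1 CPM with EtOH and at 8.53, 8.65 and 8.15 CPM with 4-OHT (log2 -1.16 ± 0.08 SE, adjusted p = 4.71e-12). The 4-OHT libraries all lie below each EtOH library. Bhlha15, the gene of MIST1, which shapes secretory granules, fell from 25.2 ± 1.42 to 5.95 ± 0.676 CPM (log2 -2.08). Gfi1 and Spdef, which act in the differentiation of Paneth and goblet cells, fell by 0.89 and 0.84 on the log2 scale. Creb3l1, an ER-anchored factor, fell from 122 ± 4.89 to 59.7 ± 1.65 CPM.

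Factors of the other secretory fates moved in the same direction. Pou2f3, the factor that specifies tuft cells, was at 1.65, 2.43 and 2.18 CPM with EtOH and at 0.586, 0.527 and 0.516 CPM with 4-OHT (log2 -1.93 ± 0.33 SE, adjusted p = 1.59e-05). Although these levels are low, the groups do not overlap. Neurog3, which commits cells to the enteroendocrine fate, was at 3.58, 5.06 and 5.94 CPM with EtOH and at 1.55, 2.95 and 2.63 CPM with 4-OHT (log2 -1.02 ± 0.25 SE, adjusted p = 0.00192). The highest 4-OHT library was just under the lowest EtOH library. Insm1 and Pax4, which act after Neurog3, fell by 2.49 and 1.46 on the log2 scale. Hopx fell from 87.6 ± 7.75 to 44.7 ± 3.68 CPM and Myb from 109 ± 5.01 to 58.2 ± 5.58 CPM. Xbp1, a factor of the unfolded protein response in secretory cells, was not called, at 333 ± 21.1 and 355 ± 9.98 CPM.

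Goblet cell genes fell in part. Of 29 measured genes 8 fell, 2 rose and 19 were not called, and the median was -0.37. Fcgbp, a protein that crosslinks mucus, fell from 1985 ± 123 to 839 ± 105 CPM (log2 -1.24 ± 0.12 SE, adjusted p = 8.02e-09), and Spink4, a protease inhibitor, from 432 ± 93.2 to 211 ± 32.8 CPM. Ern2, a sensor of ER stress in mucous cells, and Sytl2, which acts in granule exocytosis, fell by 1.02 and 1.16 on the log2 scale. Muc2, the gel-forming mucin, was at 284, 192 and 197 CPM with EtOH and at 197, 129 and 125 CPM with 4-OHT. Replicate 1 was the highest library of each group, the groups overlapped, and the log2 fold change of -0.57 ± 0.21 SE (adjusted p = 0.0359) missed the fold cutoff, although it passed in 5 alternatives. Tff3, the trefoil peptide secreted with mucins, was not called, at 804 ± 79.5 and 853 ± 120 CPM. The 2 that rose were Guca2b, which encodes uroguanylin, and Muc3, a membrane mucin of enterocytes (log2 0.94 and 0.78).

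Tuft cell genes had a median of -1.05, with 12 of 20 falling and 3 rising. Most are close to the detection limit: Trpm5, the cation channel of taste signalling, was at 2.03, 2.63 and 2.89 CPM with EtOH and at 0.426, 0.527 and 0.619 CPM with 4-OHT (log2 -2.25 ± 0.30 SE, adjusted p = 4.04e-07). The groups are apart by more than their spread. Plcb2, the phospholipase upstream of this channel, had 0 counts in all 4-OHT libraries and 6, 4 and 6 counts with EtOH, which makes it at least 1.73-fold lower. The count of falling genes dropped to 3 when at least 10 counts in every library were required and to 5 when only the 6 libraries were fitted, both with fewer genes tested. The 3 that rose, Plcg2 (log2 2.14), Ly6g6f (2.41) and Hpgds (0.96), encode a phospholipase, an immunoglobulin-superfamily surface protein and a prostaglandin D synthase. Dclk1 had at most 1 count in any library and was not tested. The enteroendocrine list gave no common direction: 12 of 30 genes were measured, Gfra3 and Cpe fell, Ddc and Aplp1 rose, and Cck, Gcg, Sst, Pyy and Tph1 had 0 counts in all 6 libraries. Without replicate 1 of either group 1 gene of this list rose, Aplp1 losing its call, and 1 fell, and none fell when at least 10 counts in every library were required.

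Stem cell genes were lower as well. Of 25 measured, 15 fell and 1 rose, and the median was -0.78. Lgr5, the R-spondin receptor that marks crypt base stem cells (chromosome 10, 115450311 to 115587780), was at 160, 183 and 178 CPM with EtOH and at 60.5, 66.7 and 72.8 CPM with 4-OHT (log2 -1.38 ± 0.14 SE, adjusted p = 7.36e-08). Olfm4, a secreted glycoprotein of the same cells, was at 2571, 2547 and 2347 CPM with EtOH and at 1150, 1344 and 1310 CPM with 4-OHT (log2 -0.97 ± 0.16 SE, adjusted p = 7.53e-05). In both genes the groups are clearly separated. Ascl2, a transcription factor of stem cell identity, fell from 23.1 ± 2.51 to 8.74 ± 1.54 CPM. Msi1 and Mex3a, both RNA-binding proteins of crypt cells, and Ephb2, a receptor that positions cells in the crypt, fell by 1.05, 1.19 and 0.94 on the log2 scale. Smoc2 was not called, at 423 ± 17.0 and 319 ± 6.57 CPM (log2 -0.41). The gene that rose was Gkn3, a gastrokine, from 7.15 ± 2.00 to 17.4 ± 2.79 CPM, and 2 genes rose when replicate 1 or 2 of either group or replicate 3 of the EtOH group was left out.

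Among 38 measured Wnt ligands, receptors and feedback genes, 13 fell and 1 rose, with a median of -0.30. Axin2, a feedback inhibitor that reports canonical Wnt activity, was at 151, 143 and 137 CPM with EtOH and at 64.2, 62.9 and 68.2 CPM with 4-OHT (log2 -1.14 ± 0.12 SE, adjusted p = 5.09e-08). Its groups are separated by far more than their spread. Myc and Tcf7, a target and an effector of the pathway, fell by 1.13 and 1.19 on the log2 scale, the receptor Fzd9 by 1.93 and the stem cell feedback ligases Znrf3 and Rnf43 by 0.78 and 0.66. The core components Ctnnb1 and Lrp5 were not called, with 735 ± 19.9 against 776 ± 15.6 CPM and 370 ± 22.6 against 268 ± 11.0 CPM. Wnt6, the gene that rose (log2 1.25), averaged 1.28 CPM with 4-OHT and its call is lost without replicate 1 or 3 of the EtOH group or replicate 2 of the 4-OHT group.

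In the Notch pathway, 10 of 29 measured genes fell and none rose, with a median of -0.22. The falls concern ligands, receptors and modifiers: Dll4 from 8.43 ± 0.711 to 3.38 ± 0.386 CPM, Jag2 from 38.2 ± 3.04 to 21.2 ± 1.16 CPM, Notch1 from 51.6 ± 6.05 to 29.7 ± 2.62 CPM, Notch2 from 17.1 ± 0.327 to 8.92 ± 0.267 CPM, and Lfng, which glycosylates the receptors, from 26.9 ± 2.21 to 12.5 ± 1.79 CPM. Hes1, the target that represses Atoh1, was at 94.5, 90.1 and 90.3 CPM with EtOH and at 138, 134 and 129 CPM with 4-OHT. The groups do not overlap, but at 1.46-fold (log2 0.54 ± 0.06 SE, adjusted p = 3.37e-08) it did not reach the fold cutoff. Genes of the EGF family and MAPK feedback were mostly not called, with 3 of 22 falling, among them Dusp4, a phosphatase of ERK, and Areg, a ligand of EGFR. The call of Areg is lost without replicate 3 of either group, and 5 genes fell without replicate 1 of either group. Of 15 genes of the BMP and TGF-beta response, 4 fell, among them Tgfb1 and Bmp7 (log2 -0.95 and -0.83), and 11 were not called, while 1 rose without replicate 3 of the EtOH group.

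Cell cycle genes were lower. In the list of DNA replication and the G1/S transition, 17 of 37 genes fell, none rose and the median was -0.50. In the list of mitosis and G2/M, 13 of 32 fell, none rose and the median was -0.56. Mki67, which encodes the proliferation antigen Ki-67, was at 346, 288 and 268 CPM with EtOH and at 121, 108 and 129 CPM with 4-OHT (log2 -1.33 ± 0.14 SE, adjusted p = 1.39e-07). Each 4-OHT library was under each EtOH library. Top2a, the topoisomerase that untangles chromosomes, fell from 293 ± 11.2 to 154 ± 10.6 CPM, and Cenpe and Cenpf, proteins of the kinetochore, by 0.91 and 0.95 on the log2 scale. Pole, the leading-strand polymerase, fell from 50.2 ± 2.02 to 24.7 ± 2.47 CPM and Mcm2, a subunit of the replicative helicase, from 145 ± 6.43 to 86.6 ± 1.2 CPM. Ccna2 and Mcm7, at log2 -0.57 and -0.54, missed the fold cutoff, and Ccna2 passed in 5 of 15 alternatives.

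Genes of the absorptive brush border were higher. Of 36 measured, 15 rose and 2 fell, against 8.86% and 6.92% of all genes, and the median was 0.56. Mep1a, the alpha subunit of the metalloprotease meprin (chromosome 17, 43474324 to 43502812), was at 22.1, 27.7 and 26.7 CPM with EtOH and at 93.5, 88.8 and 100 CPM with 4-OHT (log2 1.88 ± 0.09 SE, adjusted p = 3.84e-15). No 4-OHT library came near the EtOH range. The peptidases Ace, Naaladl1, Dpp4 and Anpep rose by 1.72, 1.24, 1.11 and 0.98 on the log2 scale, Krt20, a keratin of differentiated cells, from 172 ± 5.60 to 400 ± 20.1 CPM, and Alpi, the intestinal alkaline phosphatase, from 464 ± 163 to 861 ± 211 CPM. Sugar handling differed within the list: Slc2a2, the basolateral glucose transporter GLUT2, fell from 43.4 ± 4.57 to 16.1 ± 0.755 CPM (log2 -1.43 ± 0.12 SE, adjusted p = 1.15e-10), Sis, the sucrase-isomaltase, was not called at 3032 ± 366 and 3173 ± 337 CPM, and Khk, the fructokinase, rose by 0.88 on the log2 scale.

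Genes of lipid uptake and chylomicron assembly had 14 of 31 members that rose and 2 that fell, with a median of 0.54. Cd36 was at 5.04, 5.46 and 4.82 CPM with EtOH and at 43.5, 42.7 and 42.4 CPM with 4-OHT (8.38-fold, log2 3.07 ± 0.15 SE, adjusted p = 4.37e-15). Fabp2, the intestinal fatty acid-binding protein, was at 242, 282 and 254 CPM with EtOH and at 609, 764 and 740 CPM with 4-OHT (log2 1.44 ± 0.08 SE, adjusted p = 1.04e-13). Both genes show a wide gap between groups. Rbp2, which binds retinol in enterocytes, rose from 295 ± 31.6 to 696 ± 37.6 CPM, and both subunits of the basolateral bile acid exporter rose, Slc51a by 1.12 and Slc51b by 1.70 on the log2 scale. Mogat2 and Dgat1, enzymes of triglyceride resynthesis, rose by 0.66 each. Apoa1 and Apob were not called, with 1328 ± 76.5 against 1339 ± 92.7 CPM and 962 ± 260 against 1317 ± 310 CPM, although Apob was called without replicate 1 of the EtOH group. The 2 that fell were Abca1, a cholesterol exporter (log2 -1.39), and Fgf15, the hormone that ileal cells release in response to bile acids, from 7.54 ± 1.34 to 1.68 ± 0.371 CPM. Only 1 gene of the list fell without replicate 1 or 2 of the EtOH group or replicate 2 or 3 of the 4-OHT group.

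Of 31 enterocyte transcription factors and nuclear receptors 5 rose, none fell and the median was 0.04. They were Maf, a factor of villus enterocytes, from 7.69 ± 1.39 to 19.0 ± 2.62 CPM, Ppargc1a, a coactivator of mitochondrial genes, from 5.28 ± 0.310 to 12.2 ± 1.23 CPM, and the nuclear receptors Nr1h3 (LXR alpha), Nr1i3 (CAR) and Nr1h4 (FXR). Hnf4a was not called, at 1081 ± 15.1 and 914 ± 38.8 CPM, and Cdx2 and Elf3 had log2 fold changes of 0.02 and 0.00. In fatty acid oxidation and ketogenesis 5 of 24 genes rose and none fell, among them Acadl, a long-chain acyl-CoA dehydrogenase, from 105 ± 0.898 to 184 ± 2.26 CPM. Of 31 genes of sterol and fatty acid synthesis, only Fads1, a desaturase, was called, downward (log2 -0.62), and its call is lost without replicate 1 of the 4-OHT group. Without replicate 3 of the EtOH group 1 gene of this list rose.

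Cytochrome P450 and conjugating enzymes were mostly higher: 27 of 53 rose, 3 fell and the median was 0.65. Cyp2d34, Cyp4v3 and Cyp4b1, the monooxygenases Fmo1 and Fmo2 and the sulfotransferase Sult1b1 rose by 2.52, 1.96, 1.68, 1.98, 1.62 and 1.32 on the log2 scale. Cyp4v3 was at 75.2, 60.7 and 59.8 CPM with EtOH and at 287, 239 and 235 CPM with 4-OHT, with no overlap. The 3 that fell were Cyp26b1, Adh4, whose call is lost without replicate 1 of the EtOH group or replicate 3 of the 4-OHT group, and Cyp2s1, and Cyp26b1 dropped from 2.13, 4.3 and 4.97 CPM to 0.480, 0.580 and 0.516 CPM (log2 -2.83 ± 0.51 SE, adjusted p = 0.000188). In the NRF2 list, which holds targets of the antioxidant response, 8 of 26 rose and 3 fell, with a median of 0.46. The rises were in enzymes of conjugation and detoxification, such as Gsta2, a glutathione transferase (29.0 ± 1.24 to 69.2 ± 7.88 CPM), and Nqo1, a quinone reductase (72.7 ± 9.35 to 145 ± 25.0 CPM). The falls were Slc7a11, the cystine importer (40.2 ± 3.51 to 13.4 ± 0.933 CPM), Hmox1, the haem oxygenase (18.4 ± 3.35 to 9.63 ± 0.970 CPM), and Abcc4, an export pump.

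Serine synthesis, folate and ATF4 target genes were lower, with 15 of 28 falling, 2 rising and a median of -0.64. Phgdh, the first enzyme of serine synthesis, was at 50.9, 65.3 and 65.1 CPM with EtOH and at 23, 24.7 and 26.8 CPM with 4-OHT (log2 -1.28 ± 0.26 SE, adjusted p = 0.000665). The groups are well apart. Psat1, the next enzyme of this route, fell from 436 ± 11.5 to 206 ± 10.9 CPM, whereas Psph, the last, rose from 6.93 ± 0.768 to 11.2 ± 1.72 CPM. The mitochondrial folate enzymes Shmt2, Mthfd2 and Mthfd1l fell by 1.11, 1.31 and 1.14 on the log2 scale, beside Aldh1l2. The amino acid transporter Slc7a5 fell from 110 ± 18.5 to 42.7 ± 3.21 CPM, while Slc3a2, its heavy chain, rose from 200 ± 7.73 to 318 ± 41.1 CPM. Without replicate 1 of the 4-OHT group 1 gene of the list rose. Atf4 itself was not called, at 317 ± 12.8 and 339 ± 19.5 CPM. Of 28 genes of ER folding and quality control only Ern2, which is also on the goblet list, was called, and 1 gene rose without replicate 3 of either group.

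Glycolysis and hypoxia genes had 10 of 27 members that fell and none that rose, with a median of -0.33. Egln3, an oxygen-sensing prolyl hydroxylase, was at 193, 236 and 261 CPM with EtOH and at 88.5, 91.7 and 90.4 CPM with 4-OHT (log2 -1.35 ± 0.09 SE, adjusted p = 2.05e-12). Hk2, an inducible hexokinase, Pfkfb3, which makes the activator of phosphofructokinase, and Slc16a3, a lactate exporter, fell by 1.32, 1.15 and 1.19 on the log2 scale. The most abundant members, Ldha and Pkm, were not called, at 3365 ± 180 and 2832 ± 248 CPM and at 2371 ± 225 and 2114 ± 341 CPM. Of 23 immediate early and AP-1 genes, 7 fell and none rose. Egr1, an early growth response factor, was at 45.4, 56.5 and 66.4 CPM with EtOH and at 10.9, 11.5 and 11.8 CPM with 4-OHT (log2 -2.30 ± 0.14 SE, adjusted p = 7.85e-12), a clear separation. Klf2, Nr4a1 and Jun fell by 1.45, 1.35 and 0.95 on the log2 scale, and Jund was not called. Regenerative and YAP target genes went both ways, with 6 of 26 rising and 7 falling. Sprr1a, a cornified envelope protein, fell from 33.5 ± 3.14 to 12.4 ± 3.17 CPM and Ly6a, the SCA-1 antigen of regenerating epithelium, from 13.9 ± 2.23 to 5.83 ± 1.57 CPM, whereas Anxa10, an annexin, rose from 15.3 ± 1.55 to 31.1 ± 6.46 CPM. The number rising was 3 without replicate 2 of the EtOH group. Of 25 p53 targets 3 rose (Tap1, Fas and Tnfrsf10b), none fell, and Cdkn1a was at 257 ± 10.6 and 252 ± 18.4 CPM. The call of Tap1 is lost in 5 alternatives, among them without replicate 1 of either group or replicate 2 of the 4-OHT group, and 1 gene fell without replicate 1 of the EtOH group or replicate 2 of the 4-OHT group.

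Interferon-stimulated genes rose, 21 of 36 measured, and 1 fell, with a median of 0.96. Ifit1, which binds viral RNA ends, was at 1.74, 2.28 and 3.15 CPM with EtOH and at 9.59, 13.8 and 8.62 CPM with 4-OHT (log2 2.16 ± 0.35 SE, adjusted p = 5.52e-05). All 4-OHT libraries were above all EtOH libraries. Oasl2, of the oligoadenylate synthetase family, was at 2.32, 2.68 and 2.59 CPM with EtOH and at 9.43, 9.39 and 8.41 CPM with 4-OHT, and Irf7, which amplifies the interferon response, rose from 14.8 ± 1.65 to 33.9 ± 2.66 CPM. Their levels remained low beside those of epithelial genes. Stat2 and Bst2 were not called (log2 0.43 and 0.14). The gene that fell was Cxcl10, a chemokine, from 0.749 ± 0.0673 to 0.123 ± 0.0823 CPM. The number of rising genes was 13 when at least 10 counts in every library were required and 17 without the first library of both groups.

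Promoters of this group were searched for the interferon-stimulated response element, read as GAAA followed after 2 bases by GAAA, on either strand, a motif added after the values had been seen. Of the 22 members called, 19 matched a RefSeq promoter and 11 hold it (57.9%), against 3.56% of the 9799 matched promoters of protein-coding genes tested and 7.80% of the 897 matched promoters of those that rose. In the whole list 16 of the 27 matched promoters hold it (59.3%), although only 75% of its 36 members were matched, so the element is not limited to members that were called. The windows of 3 members are shown because the element is repeated close to the start site. They are at chr19:34640769-34640848 for Ifit1 and chr19:34583359-34583438 for Ifit3, both on the plus strand, and at chr4:156200849-156200928 on the minus strand for Isg15, a ubiquitin-like modifier. Capitals mark the element, in Isg15 as 3 overlapping matches.
Ifit1: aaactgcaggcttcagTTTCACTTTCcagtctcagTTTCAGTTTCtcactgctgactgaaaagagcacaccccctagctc
Ifit3: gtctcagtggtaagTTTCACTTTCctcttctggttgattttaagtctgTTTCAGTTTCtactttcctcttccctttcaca
Isg15: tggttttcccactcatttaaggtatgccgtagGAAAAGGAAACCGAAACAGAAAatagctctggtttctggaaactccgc
Ifit1 rose by 2.16, Ifit3 by 1.78 and Isg15 by 0.99 on the log2 scale. A match is a description of letters, and none of these windows was tested for a bound factor.

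MHC class I and antigen processing genes rose in 14 of 20 cases and fell in none, with a median of 0.74. B2m, the invariant light chain, rose from 269 ± 10.6 to 463 ± 7.13 CPM (log2 0.79 ± 0.07 SE, adjusted p = 1.34e-10). H2-T3, the thymus leukaemia antigen of intestinal epithelium, was at 11.0, 11.9 and 10.7 CPM with EtOH and at 42.5, 47.9 and 45.3 CPM with 4-OHT, with no overlap. The immunoproteasome subunits Psmb9 and Psmb10 rose by 1.28 and 0.87 on the log2 scale. H2-K1 was not called, at 515 ± 8.28 and 660 ± 63.2 CPM, and H2-Q1 and H2-Q2, which rose by 1.25 and 1.5, belong to a family of similar copies among which reads may have been divided. Of the MHC class II genes only H2-DMa and H2-Eb1 passed the filter, and neither was called. Among epithelial chemokines and cytokines, 8 of 20 rose and 2 fell. Il15, which sustains intraepithelial lymphocytes, rose from 4.39 ± 0.171 to 8.97 ± 0.300 CPM, Il33, an alarmin, from 3.07 ± 0.744 to 9.11 ± 1.52 CPM, and Tnfaip3, an inhibitor of NF-kB, from 17.2 ± 2.71 to 36 ± 4.29 CPM, while Ccl9 fell from 56.3 ± 7.66 to 18.4 ± 2.32 CPM. Pigr, the immunoglobulin A transporter, was not called, at 1715 ± 79.9 and 1807 ± 61.0 CPM.

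The remaining lists held few calls. Of 24 subunits of SWI/SNF, the chromatin remodeller, Smarcc1, Bcl7a and Arid1a fell by 0.69, 0.63 and 0.62 on the log2 scale and 21 were not called, with a median of -0.32, and the number falling was 2 to 5 over the alternatives. It was 5 without replicate 3 of the 4-OHT group, the call of Arid1a is lost without its replicate 2 and that of Bcl7a without its replicate 1. Smarca4, among those not called, missed the fold cutoff at log2 -0.58 and passed in 9 of 15 alternatives. Of 16 clock genes 1 rose and 2 fell, and of 27 genes of ion transport and barrier 3 rose and 2 fell, where Slc26a3, a chloride-bicarbonate exchanger, rose by 1.01 and Aqp4, a water channel, fell by 0.70 on the log2 scale. None of the 8 epithelial identity markers was called. The share of mitochondrially encoded counts was 1.5 to 1.6% with EtOH and 1.63 to 1.96% with 4-OHT, and its part in the other results was not tested.

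**Figure D3:**
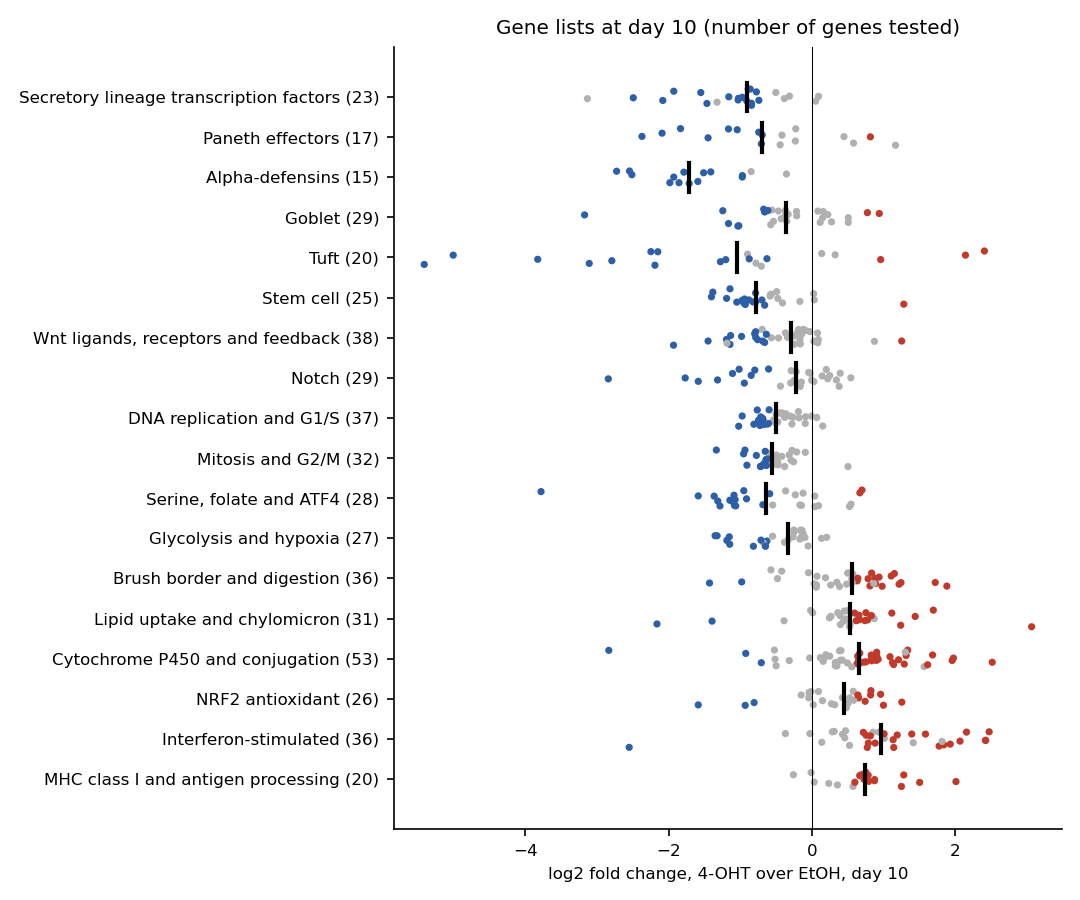
Log2 fold change of 4-OHT relative to EtOH at day 10 (horizontal) for the measured members of 18 gene lists, 1 row per list. Each point is a gene, red where it rose, blue where it fell and grey where it was not called, and the black bar is the median. Alpha-defensins lie farthest to the left with a median of -1.71, and interferon-stimulated genes farthest to the right with 0.96.

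The responses at day 10 were set against those of the same line at day 7, each against its own EtOH libraries, to see which genes changed between these times. Of the 1368 genes that rose at day 10, 694 (50.7%) also rose at day 7, where they are 49.9% of the genes that rose and 9% of all genes did so. Of the 1069 that fell, 527 (49.3%) also fell at day 7, 36.9% of the genes that fell there, as did 9.25% of all genes. At day 5, where 8.58% of all genes rose and 4.62% fell, 448 of the rises and 368 of the falls were called in the same direction. At day 3, where 6.42% of all genes rose and 5.95% fell, 142 of the rises and 68 of the falls were called in the same direction, and 271 of the genes that rose at day 10 were lower and 148 of those that fell were higher. There were 524 rises and 435 falls at day 10 with no call in the same direction at day 3, 5 or 7, of which 123 and 147 also differed from the day 7 response by the interaction test. That test called 990 genes (6.41%), 461 with a higher (2.98%) and 529 with a lower (3.42%) response at day 10. Without replicate 3 of the 4-OHT group at day 7 the number with a higher response was 699. The day 10 libraries lie apart from all others in the first principal component (41.4% of the variance) with both EtOH and 4-OHT, so the time and any difference in how the libraries were made cannot be told apart.

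Of 17 Paneth genes 4 had a lower response at day 10 than at day 7, as had Lgr5, and of 15 alpha-defensins none had by this test in edgeR. Itln1 had a log2 response of -1.57 at day 7 and -2.37 at day 10 (difference -0.80 ± 0.10 SE, adjusted p = 2.03e-06), Ang4 of -1.17 and -2.09 (difference -0.92 ± 0.17 SE, adjusted p = 0.000729) and Lgr5 of -0.73 and -1.38 (difference -0.66 ± 0.19 SE, adjusted p = 0.0215). The call of Lgr5 is lost in 6 of 20 alternatives, which are the fit of days 7 and 10 alone and the fits without replicate 1 or 2 of EtOH or 2 or 3 of 4-OHT at day 7 or replicate 1 of 4-OHT at day 10. The responses of Lyz1 and Atoh1 differed by -0.20 ± 0.15 SE and -0.24 ± 0.11 SE and were not called. Olfm4 went the other way, from -1.67 to -0.97 (difference 0.70 ± 0.23 SE, adjusted p = 0.0429), but this call is lost in 11 of 20 alternatives, 9 of them with 1 library of day 7 or day 10 left out. Neurog3 and Pax4, the enteroendocrine factors, were not called at day 7 (12.7 ± 1.9 against 12.7 ± 0.470 CPM and 3.50 ± 0.395 against 4.27 ± 0.703 CPM), and their responses at day 10 were lower by 1.02 ± 0.31 SE and 1.75 ± 0.41 SE on the log2 scale. That of Neurog3 is not called without replicate 1 of EtOH at day 7, replicate 2 or 3 of EtOH at day 10 or replicate 1 of 4-OHT at day 10.

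Other groups shifted between the days. In DNA replication 34 of 37 genes fell at day 7 with a median of -0.94, against 17 and -0.50 at day 10, and 8 members had a higher response at day 10 by the interaction test and none a lower one. In mitosis 29 of 32 fell at day 7 against 13 at day 10, but only 1 passed the test of the difference. In the glycolysis and hypoxia list 10 of 27 had a lower response at day 10 and none a higher one: Egln3 was at 390 ± 16.7 and 369 ± 31.1 CPM at day 7, and its response was lower by 1.27 ± 0.12 SE at day 10 (adjusted p = 2.26e-07). In the NRF2 list 11 of 26 had a higher response at day 10 and none a lower one, Nqo1 by 1.43 ± 0.22 SE (adjusted p = 0.000309) and Gsta2 by 1.04 ± 0.11 SE (adjusted p = 5.38e-07). Interferon-stimulated genes rose in 26 of 36 cases at day 7 with a median of 1.58, and 7 had a lower response at day 10, among them Oas3 (difference -3.01 ± 0.55 SE, adjusted p = 0.000349), Xaf1 (-2.93 ± 0.73 SE) and Oasl2 (-2.43 ± 0.44 SE).

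**Figure D4:**
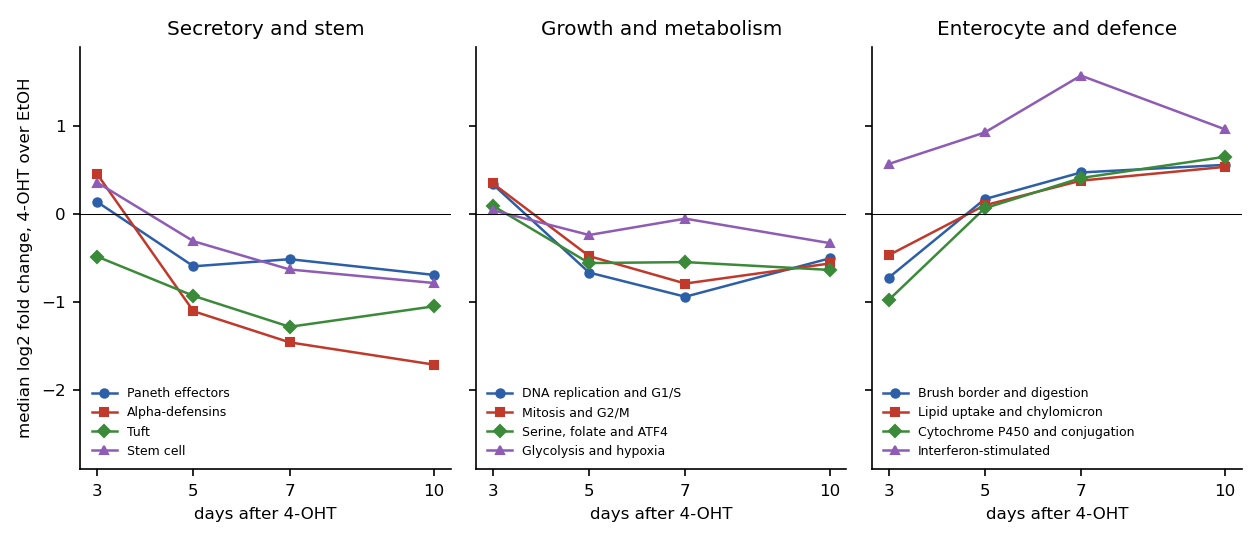
Median log2 fold change of 4-OHT relative to EtOH (vertical) of gene lists at days 3, 5, 7 and 10 (horizontal), in 3 panels of lists. Lines join the medians of a list over the days and carry no error. Alpha-defensins reach -1.71 at day 10, DNA replication returns from -0.94 at day 7 to -0.50, and interferon-stimulated genes go from 1.58 to 0.96.

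The response in standard medium was compared with that of the same line in Wnt3-CM, which supplies the Wnt ligand from outside, in a joint fit of 12 libraries and 14337 genes. In this fit 2474 genes were DEGs in standard medium and 2416 in Wnt3-CM (17.3% and 16.9%). Rises were 9.47% and falls 7.78% of all genes in standard medium, and 9.48% and 7.37% in Wnt3-CM. They share 607 rises (44.7% of each) and 391 falls (35.0% and 37.0%). The response differed between media for 1911 genes (13.3%), higher in Wnt3-CM for 1020 (7.11%) and lower for 891 (6.21%). Both media were counted in separate tables, and the EtOH libraries themselves differ in level for several of these genes, so medium and table cannot be told apart.

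In each medium, counted separately, most secretory transcription factors and most Paneth genes fell. Lyz1 was at 3821 ± 188 CPM with EtOH and 1248 ± 142 CPM with 4-OHT in Wnt3-CM (log2 -1.61), a response that differed from standard medium by 0.23 ± 0.11 SE and was not called (adjusted p = 0.149). Atoh1 was at 19.1 ± 0.557 and 10.8 ± 1.01 CPM, with a difference of 0.34 ± 0.13 SE (adjusted p = 0.0581). Of the 13 alpha-defensins tested in this fit 11 fell in Wnt3-CM and 1 differed between media. Of the 20 secretory transcription factors tested in it 13 fell, with 2 responses higher and 2 lower than in standard medium. Of 16 Paneth genes 12 fell in Wnt3-CM, with 4 responses lower and 1 higher there. Of 20 tuft genes 14 fell in Wnt3-CM with a median of -3.07, and 6 responses were lower and 1 higher than in standard medium.

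Stem cell and cell cycle genes responded differently in the media. Olfm4 was at 787 ± 56.4 CPM with EtOH and 877 ± 112 CPM with 4-OHT in Wnt3-CM, a response that exceeded that in standard medium by 1.14 ± 0.12 SE (adjusted p = 1.13e-06). Axin2 was at 64.6 ± 3.34 and 63.1 ± 4.65 CPM (difference 1.12 ± 0.10 SE, adjusted p = 8.01e-08), where its EtOH level was under that in standard medium. Lgr5 fell in standard medium by 1.39 in this fit and was at 88.6 ± 11.8 and 61.9 ± 9.89 CPM in Wnt3-CM (log2 -0.52, difference 0.87 ± 0.16 SE, adjusted p = 0.000811). Mki67 was at 160 ± 12.8 and 161 ± 27.9 CPM (difference 1.35 ± 0.18 SE, adjusted p = 0.000117). The EtOH levels of Olfm4, Lgr5 and Mki67 in Wnt3-CM were also under those in standard medium. With 4-OHT, Olfm4 was lower in Wnt3-CM than in standard medium, Lgr5 was close and Mki67 was higher on average. Of 37 DNA replication genes 31 had a higher response in Wnt3-CM and none a lower one, and of 32 mitosis genes 28 and none. In the stem cell list 9 of 25 were higher and none lower.

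Absorptive and interferon genes differed in other ways. Cd36 had a larger fold in Wnt3-CM, from 0.587 ± 0.109 to 14.6 ± 0.490 CPM (difference 1.57 ± 0.20 SE, adjusted p = 8.89e-06). Both levels of Cd36 were under those in standard medium. Krt20 was at 578 ± 25.1 and 477 ± 26.7 CPM in Wnt3-CM and had a response lower by 1.48 ± 0.09 SE (adjusted p = 8.10e-10). Both levels of Krt20 were above those in standard medium. Brush border genes split evenly, with 7 responses higher and 7 lower in Wnt3-CM. Of 36 interferon-stimulated genes 21 had a lower response in Wnt3-CM and 2 a higher one. Ifit1 stood at 74.4 ± 9.56 CPM with EtOH and 53.4 ± 7.79 CPM with 4-OHT there, so that its EtOH level was far above the 2.39 ± 0.708 CPM of standard medium (difference -2.63 ± 0.30 SE, adjusted p = 4.3e-05). Oas3 and Oasl2 had the same arrangement, with EtOH levels of 43.4 ± 2.86 and 127 ± 11.6 CPM in Wnt3-CM.

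**Figure D5:**
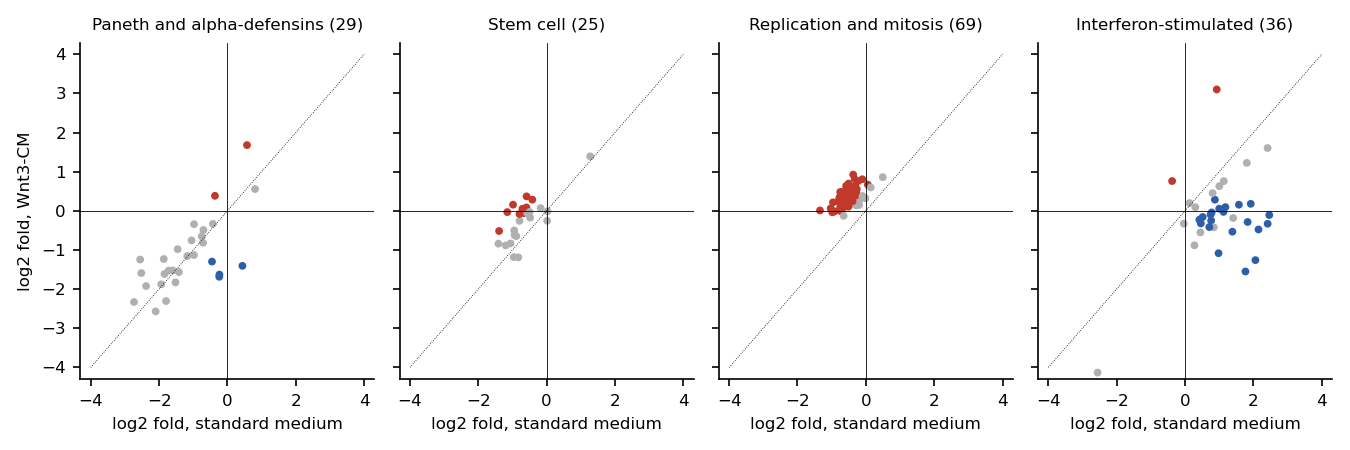
Log2 fold change of 4-OHT relative to EtOH at day 10 in standard medium (horizontal) and in Wnt3-CM (vertical), both from the joint fit, for 4 groups of genes. Red points have a higher and blue points a lower response in Wnt3-CM by the interaction test, grey points were not called, and the dotted line marks equal responses. Most Paneth genes and defensins are grey, replication and mitosis genes lie mostly above the line and interferon-stimulated genes mostly below it.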

How the data were processed

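RNA-Seq libraries of organoids were analysed from the counts deposited by the authors, which are raw counts of 100 bp paired-end reads per gene without normalization. The submitters' processing notes list STAR 2.5.2, featureCounts, Subread 1.6.3 and the mm10 build; the strandedness of the counting was not given in the sources used here, so reads of a gene and an antisense partner cannot be told apart. Gene positions are those of GENCODE vM21 (53861 of 54752 identifiers matched). Groups were taken from the labels. The columns of the Wnt3-CM libraries match the labels by group, not by replicate, and 12 other columns of that table were not used.

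The 24 libraries of the time course (8 groups of 3, 18369427 to 20884794 counts) were fitted together with edgeR 4.0.16 in R 4.3.3, with filterByExpr and TMM scaling, and tested by quasi-likelihood F tests (robust settings, 16 residual degrees of freedom). DEGs changed by more than 1.5-fold at a p below 0.05 after Benjamini-Hochberg adjustment, the cutoffs the study gives for its comparison of genotypes at day 7, while it sorts its time course by a larger fold; every adjusted p in the text is of this test. Standard errors were obtained from each log2 fold change and its F value. Interactions were contrasts in this fit, or in a joint fit of 12 libraries for Wnt3-CM (19183905 to 20361097 counts). Where no library of a group exceeded 3 counts, the fold is a bound. Floors and folds cover counting error only.

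The members, gene lists and tests were chosen with earlier results of these data known. Named genes are the 10 largest rises and falls among DEGs that average at least 50 counts in the higher group, the genes the study names in its RNA-Seq results, up to 6 DEGs of each list by fold (at least 20 counts) with up to 2 members not called of the highest CPM, and the 5 largest differences each way of both interactions (at least 50 counts). Other members named in the text to describe a list were chosen after their values were seen. Promoters (250 bases before to 50 after the start site) come from RefSeq on GRCm38.p6, matched by symbol or synonym for 9799 of 12244 protein-coding symbols. Alternatives were RLE and upper quartile factors, no filter, at least 10 counts in every library, DESeq2 1.42.0, voom of limma 3.58.1, a replicate block, only the groups compared, each library left out and, added after seeing the data, the first library of both groups left out. Scripts were tested on simulated data. A few genes that the rule would name are not reported here.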

Additional observations from a re-analysis of the deposited data

Results flagged for a closer look

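Responses that differed between day 10 and day 7, or between the media, were flagged by the interaction tests. The response to 4-OHT differed between day 10 and day 7 for 990 genes, and between Wnt3-CM and standard medium at day 10 for 1911 genes.

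Against day 7, the response at day 10 was lower on the log2 scale for Alox12b, an epidermal-type lipoxygenase (-5), Acacb, an acetyl-CoA carboxylase (-4.35), Ifi27l2a (-3.02), Cyp26b1 (-3.01) and Oas3 (-3.01), and higher for Fcrlb (2.7), Cfhr2, a complement factor H-related gene (2.63), Akp3, an intestinal alkaline phosphatase (2.58), Ptgds, a prostaglandin D synthase (2.3), and Tpbgl (2.23). Alox12b averaged 8.45 ± 1.42 CPM with 4-OHT at day 7 and 0.0352 ± 0.0609 CPM at day 10, where it was at least 2.95-fold lower than with EtOH. Since that level is under the 0.154 CPM of 3 counts, its difference of -5 has no exact size. The call of Ptgds is lost in 10 of 19 alternatives, that of Fcrlb in 3, that of Akp3 in 2 and that of Acacb in 1. Acacb, Akp3, Ptgds, Tpbgl and Ifi27l2a were not DEGs at day 10. Among the genes the study names, Ang4 (-0.92), Lgr5 (-0.66) and Olfm4 (0.7) differed, the last 2 losing their call in 6 and 11 of 20 alternatives.

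Between media, the response was higher in Wnt3-CM on the log2 scale for Chrna4, a nicotinic receptor subunit (5.43), Aqp3, a water and glycerol channel (5.25), C730002L08Rik (3.31), Adh4 (3.21) and Cyp2c38 (3.15), and lower for Pik3r5, a PI3-kinase subunit (-4.84), 2010109I03Rik (-4.44), Gm19619 (-4.09), Fam129a (-3.84) and Slc28a2, a nucleoside transporter (-3.54). Aqp3 had 0 counts in the EtOH libraries of Wnt3-CM and 0.261 ± 0.171 CPM with 4-OHT, so its difference of 5.25 has no exact size (3.07 to 5.63 over the alternatives). Adh4 fell in standard medium and rose in Wnt3-CM (log2 -0.93 and 2.27 in the joint fit). The call of Fam129a is lost without replicate 2 of the 4-OHT group in standard medium. Lgr5 (0.87), Myb (1.1) and Olfm4 (1.14) were flagged too.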

How the results depend on the processing

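No named gene that was called turned to the opposite sign under the alternatives run, while some that were not called and lay near 0, such as Ptgds (log2 -0.83 to 0.45) and Tpbgl (-0.26 to 0.26), took both signs. The number of DEGs at day 10 was 2435 with RLE factors, 2441 with the upper quartile, 2458 without a filter, 1954 with at least 10 counts in every library, 2405 with DESeq2, 2399 with voom, 2346 with the 6 libraries alone and 2235 without the first library of both groups. With each library left out in turn it was 2261 to 2533, with 1249 to 1398 rises and 961 to 1135 falls. The interaction with day 7 gave 716 to 1215 genes, with 334 to 699 above and 382 to 598 below. The highest count above, 699 instead of 461, came without replicate 3 of the 4-OHT group at day 7, and the cause was not tested. The interaction with Wnt3-CM gave 1747 to 2003 genes, with 911 to 1067 above and 821 to 936 below. The replicate block gave 2465 DEGs and 1130 genes in the interaction with day 7. Deviations of day 10 libraries of equal number correlated at 0.232, 0.095 and 0.044, not all over the 0.1 asked for, so the numbers are not treated as pairs. No paired analysis was possible because the columns of Wnt3-CM carry no replicate of the labels for the comparison of media. Of the values of named genes at day 10 under the alternatives, 3973 stayed on their side of the cutoffs, called or not, 39 lost a call and 46 gained one. Of those of genes called in an interaction, 1021 kept and 102 lost the call against day 7, and 1684 kept and 111 lost it against Wnt3-CM. At these depths 3 counts are 0.154 CPM, and genes near that level, such as Plcb2, have no precise fold.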

Other observations

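Gene families, some of whose members are also on the lists above, were chosen after their values were seen and are given as counts, beside 1103 rises and 947 falls among the 12248 protein-coding genes tested. Most subunits of the respiratory chain were not called: 6 of 45 Nduf genes of complex I rose and none fell, and the median log2 fold change was 0.38, while at day 7 it was -0.08. For 12 cytochrome c oxidase subunits the median was 0.48 with 3 rises, and for 17 ATP synthase subunits 0.41 with 1 rise. None of 80 cytosolic ribosomal protein genes was called in edgeR (median -0.09).

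Glutathione transferases (12 of 24 rose, none fell, median 0.58), Nat8 acetyltransferases (4 of 5 rose, median 1.43), butyrophilin-like genes, which shape intraepithelial lymphocytes (4 of 5, median 1.12), and apolipoprotein L genes (4 of 5, median 1.9) had medians above 0.5. In the last family near-identical copies may share reads. Among 42 tripartite motif genes, many of them in antiviral defence, 14 rose and 2 fell. Nucleoporins (7 of 20 fell, median -0.43) and kinesins (9 of 34 fell, median -0.34) had no rises. Of 250 solute carriers 42 rose and 27 fell, among the rises Slc2a6 (log2 2.90), Slc15a5 (2.49) and Slc7a8 (2.01) and among the falls Slc47a1 (-2.05), an exporter of organic cations, Slc22a3 (-1.46) and Slc6a3 (-1.43).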
